A study of Mus musculus with 6 samples.

Results

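The 10 genes described here encode tau and other proteins that bind, bundle, take apart or build the microtubules of neurons: Mapt (tau), Map1a, Map1b, Map2, Map4, Map6, Dcx, Dclk1, Stmn2 and Tubb3. They were chosen by name, and their probe sets are those to which the array annotation gives that single gene symbol (the Map genes appear there as Mtap1a, Mtap1b, Mtap2, Mtap4 and Mtap6). They are 10 of 22076 genes so annotated, with 247 probe sets, of which 243 passed a filter on low values that did not use the groups. The 4 that did not pass belonged to Map1b, Map4, Dcx and Dclk1, 1 each, and all 10 genes were tested among 16532.

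The study lowered Cugbp1, the RNA-binding protein now named Celf1, in cultured mouse neurons and measured RNA on exon arrays. Cortical cells of C57BL/6 embryos at embryonic day 15, without meninges, were grown with BDNF and CNTF, and AraC, which kills dividing cells, was added on day 2. In one group a lentivirus carried a control shRNA and in the other an shRNA against mouse Cugbp1. Virus was left on the cells for 4 hours on day 5, and RNA was taken on day 11, so that cultures of both groups carried a lentivirus and had seen AraC. Each group had 3 arrays, each from 100 ng of total RNA. The labels conflict in places: in both groups the treatment text gives Tdp-43 as the shRNA target for replicates 2 and 3, and motor neurons appear in the design text, although title and samples name cortical neurons. Effects of the Cugbp1 shRNA other than on Celf1 cannot be told apart from those of lowering Celf1.

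Microtubules are polymers of alpha and beta tubulin that carry transport along axons and dendrites and give young neurons their shape. Tau lies mainly along axons and Map2 mainly in dendrites, and transcripts of both are spliced into forms with different numbers of microtubule-binding repeats. Doublecortin (Dcx) and its relative Dclk1 stabilise microtubules in migrating and growing neurons, while stathmins such as Stmn2 take up free tubulin.

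Dcx and Dclk1 were the members with the largest gene-level differences, so the sequence upstream of their annotated starts is shown. The sequences are those of RefSeq on GRCm38.p6, each 250 bases read 5′ to 3′ towards the start on the strand named. Capitals mark every match to CANNTG, the general E-box letters bound by basic helix-loop-helix proteins, or to TATAA, searched on both strands. These windows were read from the RefSeq annotation and not from the arrays, whose processing notes name another build. The Dcx window is chrX:143933220-143933469 on the minus strand, and the 2 Dclk1 windows are chr3:55242114-55242363 and chr3:55461478-55461727 on the plus strand.
Dcx, distal start: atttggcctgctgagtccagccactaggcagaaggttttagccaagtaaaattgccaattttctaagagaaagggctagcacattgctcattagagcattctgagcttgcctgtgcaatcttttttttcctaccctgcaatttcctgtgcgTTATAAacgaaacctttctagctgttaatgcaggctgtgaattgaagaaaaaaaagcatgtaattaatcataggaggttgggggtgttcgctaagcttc
Dclk1, upstream start: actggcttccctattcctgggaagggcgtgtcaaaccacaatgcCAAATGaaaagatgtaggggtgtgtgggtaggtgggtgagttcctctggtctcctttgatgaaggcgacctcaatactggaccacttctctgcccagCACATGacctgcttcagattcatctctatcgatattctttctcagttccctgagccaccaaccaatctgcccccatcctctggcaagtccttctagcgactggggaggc
Dclk1, internal start: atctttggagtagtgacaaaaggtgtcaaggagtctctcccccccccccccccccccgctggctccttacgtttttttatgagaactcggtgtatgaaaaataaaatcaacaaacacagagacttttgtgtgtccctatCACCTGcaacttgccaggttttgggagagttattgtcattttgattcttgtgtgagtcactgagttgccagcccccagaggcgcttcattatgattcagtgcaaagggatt

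The Dcx window held TATAA once on each strand in an overlapping TTATAA, no CANNTG and 3 CG dinucleotides, at a GC content of 41.6%. The upstream Dclk1 window held 2 matches to CANNTG, no TATAA and 4 CG at a GC content of 52.4%, and the internal one 1 match, no TATAA and 4 CG at 46.8%. Over all 32851 windows of this length, 22.8% held TATAA and 66.2% held CANNTG, the median CG count was 6 and the median GC content 52.4%. A match is a description of the letters and not a binding site. The 2 annotated starts of Dclk1 lie 219.4 kb apart, those of Map4 120.2 kb and those of Dcx 95 bases. Of the 10 members 7 were in the promoter table, and Mapt, Map6 and Stmn2 were not.

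The values are log2 RMA expression values, and a gene value is the median polish of its kept probe sets on an array. Array medians lay between 5.74 and 5.78, and the 6 arrays correlated pairwise at 0.953 to 0.981 over all probe sets. The number of arrays limits the precision. Celf1 had gene values of 10.85, 10.79 and 10.75 in control replicates 1, 2 and 3 and 9.59, 9.40 and 9.33 in the knockdown replicates. It fell by 1.36 on the log2 scale (SE 0.10; limma, Benjamini-Hochberg adjusted p = 0.0124), to 39.1% of control (95% interval 33.3% to 45.9%). With 1 array left out in turn the difference lay between -1.43 and -1.29, and it passed only without control replicate 1 (adjusted p = 0.029; 0.0538 to 0.142 in the other 5 cases). In replicates 2 and 3 alone Celf1 was at -1.40 (limma, adjusted p = 0.0314).

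None of the 10 members passed an adjusted p under 0.05 in limma with the groups alone. Over all 16532 genes 3.94% passed, 1.09% higher and 2.85% lower. At an unadjusted p under 0.05 there were 2, Dcx and Dclk1. Arrays with the same replicate number deviated together in the 2 groups, so the numbers were taken to pair the arrays and a fit with the number as a block is given where it changes a call. With that block Dcx and Dclk1 passed, both lower, while 23.2% of all genes passed, 9.34% higher and 13.9% lower. The mean was lower in the knockdown for 8 members and higher for 2, and the median difference over the 10 was -0.070 against -0.015 over all genes. For 6 members, Mapt, Map1b, Dcx, Dclk1, Stmn2 and Tubb3, the value was lower in each of the 3 same-numbered pairs, as it was for 31.6% of all genes. For 3, Dcx, Dclk1 and Tubb3, every knockdown array lay below every control array, as in 14.4% of all genes. The arrays measured whole cultures, so fewer cells of a type and less RNA per cell cannot be told apart.

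**Figure D1:**
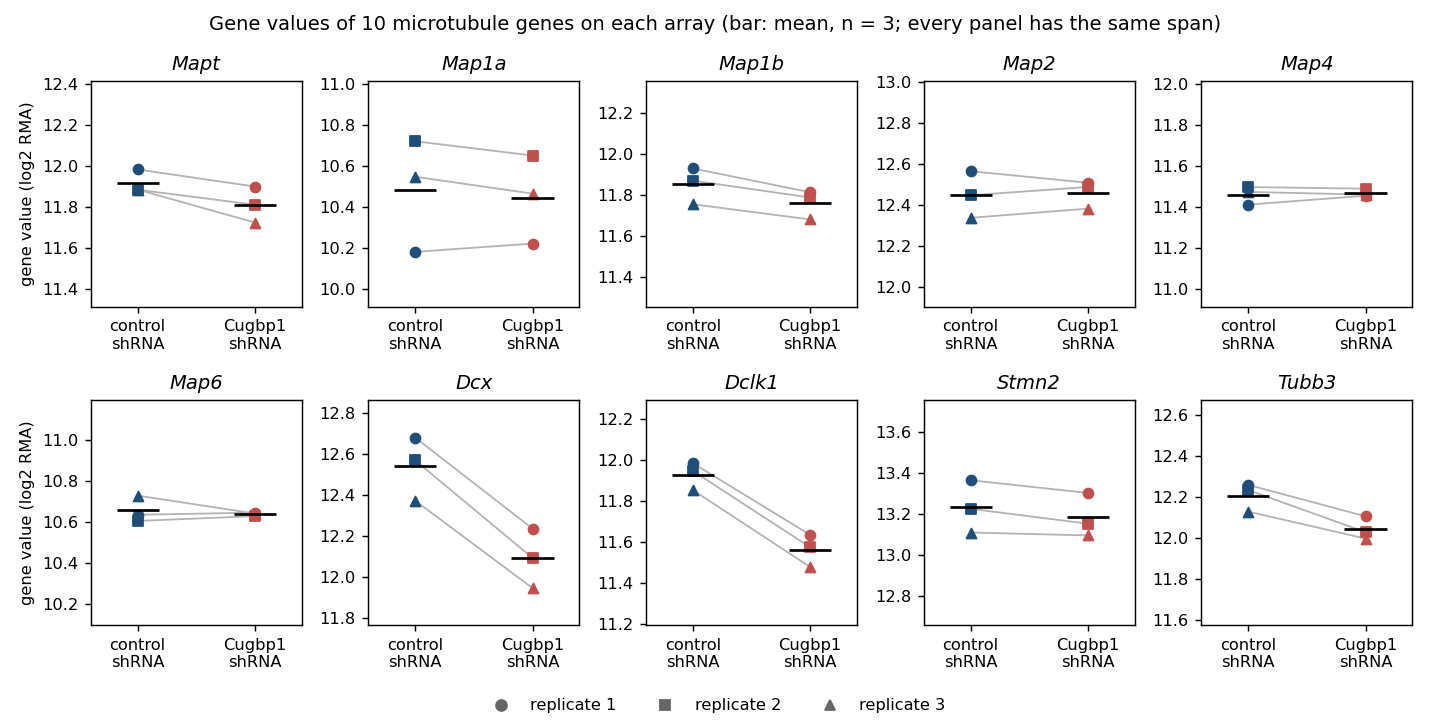
Gene value (log2) of each of the 10 members on the 3 control and 3 Cugbp1 shRNA arrays, 1 panel per gene, with a marker shape per replicate, lines joining arrays of the same number, bars at the group means and the same span on every vertical axis. In Dcx, Dclk1 and Tubb3 all 3 knockdown points sit below all 3 control points, and in the other 7 panels the groups overlap.

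Dcx, the doublecortin that marks migrating and newly formed neurons, had gene values of 12.68, 12.57 and 12.37 in control replicates 1, 2 and 3 and 12.24, 12.09 and 11.95 in the knockdown replicates. The groups did not overlap, and in both of them replicate 1 was highest and replicate 3 lowest. The difference was -0.45 (SE 0.12, 95% interval -0.73 to -0.17; limma, adjusted p = 0.0892), which is 73.3% of the control level (60.4% to 88.9%). Within the pairs it was -0.44, -0.48 and -0.43, and with the replicate block Dcx fell (limma, adjusted p = 0.00503, 95% interval -0.58 to -0.31). Of its 16 kept probe sets 13 had a lower mean and 12 were lower in all 3 pairs. Over all tested genes 25.7% of probe sets were lower in all 3 pairs, and probe sets of a gene are not independent. With the mean of the probe sets in place of median polish the difference was smaller, -0.30 (limma, adjusted p = 0.493). Replicates 2 and 3 alone, the arrays whose text names Tdp-43, gave a difference of -0.44 (limma, adjusted p = 0.0938).

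Dclk1 encodes a protein with doublecortin domains joined to a kinase domain, and shorter forms hold the kinase without them. Its gene values were 11.98, 11.95 and 11.85 in the control and 11.63, 11.57 and 11.48 in the knockdown replicates. The groups were apart by more than the spread within either. The difference was -0.37 (SE 0.09, 95% interval -0.58 to -0.16; limma, adjusted p = 0.0712), or 77.6% of control (67.1% to 89.8%). The 3 pairs gave -0.35, -0.37 and -0.38, and with the replicate block Dclk1 fell (limma, adjusted p = 0.00824, 95% interval -0.50 to -0.23). Of 43 kept probe sets 36 had a lower mean, 33 were lower in all 3 pairs and 30 had no overlap between the groups. Over all tested genes 25.7% of probe sets were lower in all 3 pairs and 10.1% were lower without overlap. Probe sets of a gene share its transcripts and the arrays and are not replicates. In replicates 2 and 3 alone the difference was -0.38 (limma, adjusted p = 0.0728).

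Tubb3, the neuronal beta tubulin, had values of 12.26, 12.24 and 12.13 in control arrays and 12.11, 12.03 and 11.999 in knockdown arrays. Knockdown replicate 1 lay just below control replicate 3, so the groups touched without overlap. The difference was -0.16 (SE 0.09; limma, adjusted p = 0.386), 89.3% of control, and it did not pass with the replicate block either (adjusted p = 0.0875). Of 9 kept probe sets, which are not independent, 8 were lower in all 3 pairs, against 25.7% of the probe sets of all tested genes.

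Tau (Mapt) had gene values of 11.98, 11.88 and 11.88 in control replicates and 11.90, 11.81 and 11.72 in knockdown replicates. Knockdown replicate 1 was above control replicates 2 and 3, so the groups overlapped. The difference was -0.11 (SE 0.09, 95% interval -0.32 to 0.10; limma, adjusted p = 0.633), or 92.9% of the control level with an interval of 80.3% to 107.5%. With the replicate block the adjusted p was 0.232. With the mean of the probe sets in place of median polish the difference turned to 0.020 (adjusted p = 0.970). No direction is therefore given for tau as a whole, whose probe sets differed in both directions.

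Map1a and Map1b encode large proteins that bind microtubules in mature and in growing neurites respectively. Map1b had values of 11.93, 11.87 and 11.75 in the control and 11.81, 11.79 and 11.68 in the knockdown, a difference of -0.091 (SE 0.09; limma, adjusted p = 0.708). Map1a had values of 10.18, 10.72 and 10.55 in the control and 10.22, 10.65 and 10.47 in the knockdown, a difference of -0.037 (SE 0.17; limma, adjusted p = 0.960). Both overlapped between groups, and Map1a differed more between replicate 1 and the others, in both groups, than between the groups.

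Map2, which spaces dendritic microtubules, had values of 12.56, 12.45 and 12.34 in the control and 12.51, 12.49 and 12.38 in the knockdown. Map4, the form found in most cell types, had 11.41, 11.50 and 11.48 against 11.46, 11.49 and 11.46. Map6, which protects microtubules from cold, had 10.64, 10.61 and 10.73 against 10.65, 10.63 and 10.64. The groups overlapped in all 3, with differences of 0.0096, 0.0073 and -0.018 and standard errors of 0.10, 0.08 and 0.08 (limma, adjusted p = 0.983, 0.985 and 0.961). The 95% intervals were -0.22 to 0.23 for Map2, -0.18 to 0.20 for Map4 and -0.21 to 0.18 for Map6. With the mean of the probe sets in place of median polish the Map2 difference was 0.16 (limma, adjusted p = 0.663). Smaller differences than these bounds could not be resolved.

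Stmn2, a stathmin of growing axons, had values of 13.37, 13.23 and 13.11 in the control and 13.30, 13.15 and 13.10 in the knockdown. Replicate 1 was the highest array of each group, and the groups overlapped. Its difference was -0.050 (SE 0.11; limma, adjusted p = 0.894), with a 95% interval of -0.30 to 0.20.

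**Figure D2:**
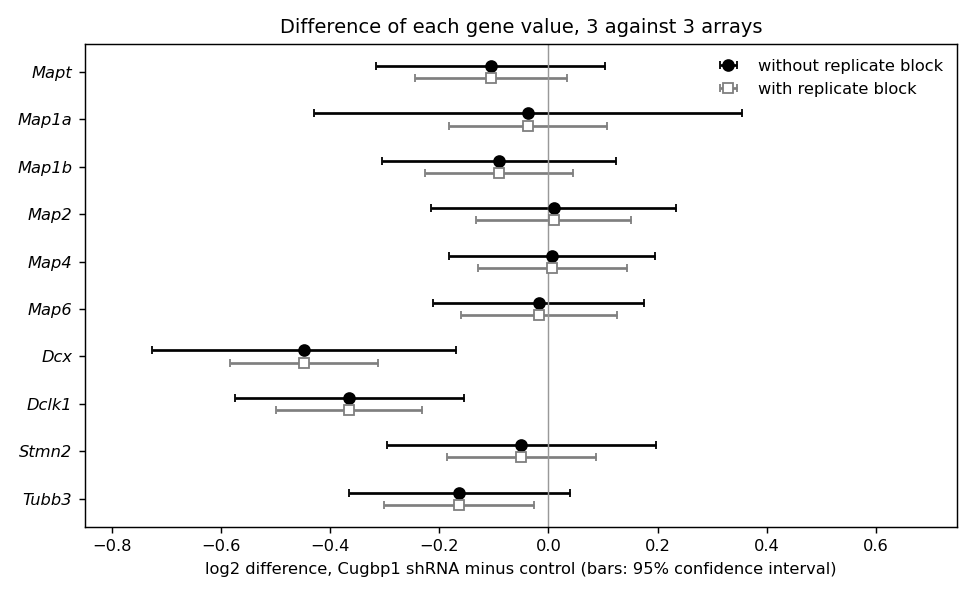
Knockdown minus control difference of gene values (log2) for the 10 members, with 95% confidence intervals from limma without and with the replicate block. The intervals of Dcx and Dclk1 lie below 0 in both fits, and the interval of Tubb3 does only with the block, before adjustment over all genes.

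The single probe sets, which read short stretches of a transcript, were tested in 3 ways. Tested for the level itself, 0 of 243 passed (limma, smallest adjusted p = 0.472, 32 with an unadjusted p under 0.05), and over all 597778 kept probe sets 0% passed. Relative to the rest of the gene (diffSplice in limma), 0 of 243 passed without the block (smallest adjusted p = 0.0989, 18 unadjusted) and 28 passed with it, 17 higher and 11 lower. The share over all 244785 probe sets was 0.0821% without and 2.37% with the block. As a splicing index, the probe set minus its gene value tested with its own variance, 0 of 243 and 0% of all passed, without the block (16 unadjusted) or with it (56 unadjusted, smallest adjusted p = 0.277). In simulated data without the block the splicing index recovered 16 of 100 differences of 1 log2 unit and 61 of 100 of 2. diffSplice takes 1 spread for all probe sets of a gene and the splicing index 1 for each, so the 28 are given as values and not as changes in splicing. The annotation gives a gene for each probe set and no exon, so the probe sets of the alternative exons of tau and Map2 were not identified here.

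In the levels, 109 of the 243 member probe sets were lower in all 3 pairs and 46 higher, against 25.7% and 23.8% of the probe sets of all tested genes. No overlap with the knockdown lower was seen in 61, and in 10.1% of all. Of these 61, 30 were in Dclk1, 10 in Dcx and 7 in Map1b. The probe sets of a gene share their transcripts and arrays, so they are not independent.

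The Dclk1 probe set with the lowest difference, 4462655, had levels of 8.95, 9.70 and 7.93 in the control and 7.43, 7.60 and 7.07 in the knockdown replicates. Every knockdown array lay below every control array, and the difference of the means was -1.49. Relative to the rest of Dclk1 it was at -1.14 (SE 0.29; diffSplice, adjusted p = 0.0989; 2.19e-10 with the replicate block), with an adjusted p of 0.00708 to 1.00 when 1 array was left out and a relative difference of -0.71 without control replicate 2. The probe set with the highest difference, 5460182, had levels of 9.49, 7.84 and 8.17 in the control and 9.52, 8.66 and 8.69 in the knockdown, where replicate 1 of both groups was highest. It stood 0.85 above the rest of the gene (diffSplice, adjusted p = 0.612; 1.70e-06 with the block), and 0.52 without control replicate 2. With the block diffSplice called 13 of 43 Dclk1 probe sets, 7 higher and 6 lower than the rest of the gene, the most of any member. Over the probe sets of all tested genes 2.37% were called with the block.

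Dcx showed a like spread among its probe sets. Probe set 4328866 had levels of 10.15, 10.29 and 9.90 in the control and 9.43, 9.27 and 9.01 in the knockdown, a difference of -0.88 with no overlap. Probe set 5456486 went the other way, with 9.65, 8.02 and 7.33 in the control and 9.27, 8.77 and 8.44 in the knockdown. Its mean was 0.49 higher, but control replicate 1 was the highest of the 6 arrays. Relative to the gene it was at 0.84, at 1.36 without control replicate 1 and at 0.46 without control replicate 3. With the block diffSplice called 4 of 16, 3 higher and 1 lower than the gene, against 2.37% over all tested genes.

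In tau, probe set 5260925 had levels of 6.28, 6.56 and 6.20 in the control and 6.83, 7.05 and 6.99 in the knockdown. All 3 knockdown arrays lay above all 3 controls, by 0.61 in the mean. Relative to the rest of Mapt it was 0.62 higher (SE 0.27; diffSplice, adjusted p = 1.00; 5.18e-04 with the replicate block; splicing index with the block, adjusted p = 0.277). The lowest difference was that of 4664837, with 11.37, 11.83 and 11.36 in the control and 11.18, 11.20 and 11.10 in the knockdown, -0.36 in the mean and without overlap. Of the 23 kept tau probe sets, 5260925 alone was above every control array in all knockdown arrays, and 4 were below every control array in all of them. Over all tested genes 10.1% of probe sets were below in this way, and the share above was not computed. With the block diffSplice called 3 of the 23 Mapt probe sets, all 3 higher than the rest of the gene, against 2.37% over all tested genes.

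In Map2, probe set 4943733 had levels of 7.78, 5.62 and 6.29 in the control and 7.79, 7.02 and 7.07 in the knockdown. Replicate 1 was high in both groups and the difference lay in replicates 2 and 3, so that the mean was 0.73 higher but the groups overlapped. Relative to the gene it was at 0.59 (diffSplice, adjusted p = 1.00; 0.00842 with the block), at 1.08 without control replicate 1 and at 0.17 without control replicate 2. Of the 36 Map2 probe sets 8 were lower and 16 higher in all 3 pairs, against 25.7% and 23.8% of the probe sets of all tested genes. Probe set 5534468, with 12.45, 12.32 and 12.27 in the control and 12.22, 12.16 and 12.12 in the knockdown, had the lowest difference, -0.18, without overlap. Among the Map2 probe sets 1 was lower and 2 were higher without overlap between the groups. Over all tested genes 10.1% of probe sets were lower without overlap, and the share higher without overlap was not computed.

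Of 34 kept Map4 probe sets 2 were lower and 3 higher without overlap between the groups. The share lower without overlap was 10.1% over all tested genes, and that for higher was not computed. Probe set 4960574 had levels of 7.96, 8.37 and 8.02 in the control and 7.47, 7.87 and 7.24 in the knockdown, 0.60 below the rest of the gene (SE 0.16; diffSplice, adjusted p = 0.120; 4.34e-05 with the block). Probe set 5521885 had 8.41, 8.50 and 8.16 in the control and 8.58, 9.08 and 8.74 in the knockdown, a difference of 0.44. In both, replicate 2 was the highest array of its group.

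In the other 5 members the differences of single probe sets lay between -0.63 and 0.34. In Stmn2, 5365782 had levels of 12.46, 12.37 and 12.03 in the control and 11.93, 11.74 and 11.74 in the knockdown, a difference of -0.48 without overlap. In Tubb3, 4608593 had 11.95, 11.78 and 11.84 in the control and 11.35, 11.47 and 11.47 in the knockdown, a difference of -0.43, also without overlap. The lowest differences in Map1b, Map6 and Map1a were -0.63, -0.56 and -0.27, in probe sets whose groups overlapped. The highest differences in Stmn2, Map1a, Map1b, Tubb3 and Map6 were 0.34, 0.31, 0.28, 0.13 and 0.11.

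**Figure D3:**
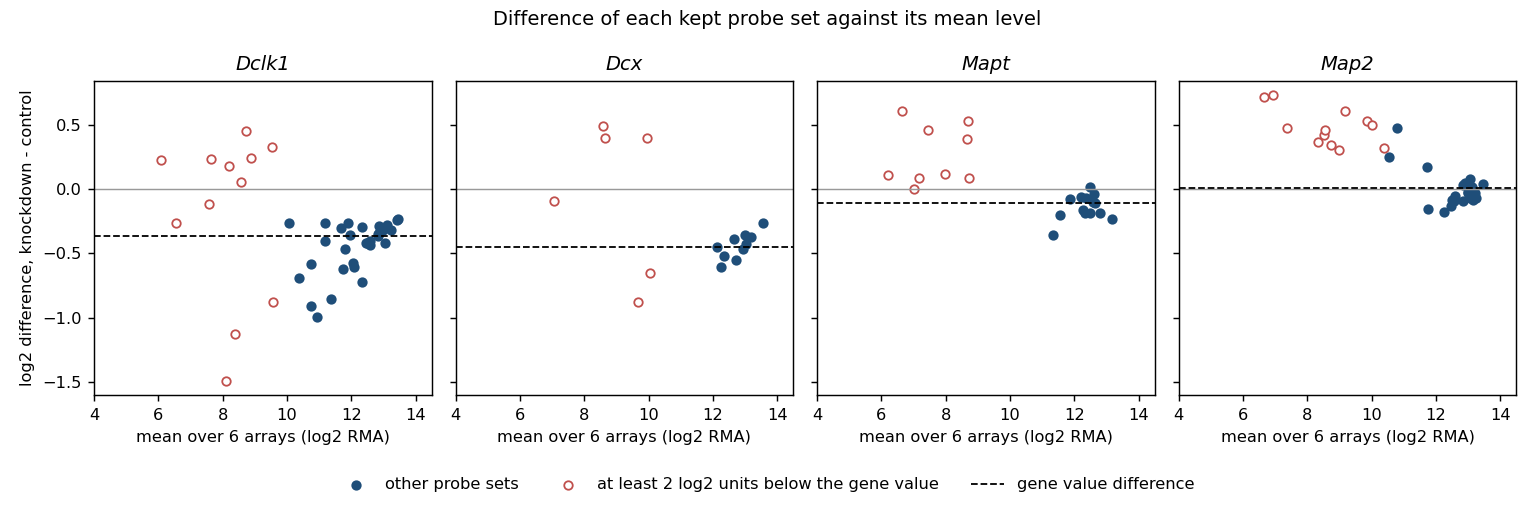
Knockdown minus control difference (log2, vertical axis) of each kept probe set of Dclk1, Dcx, Mapt and Map2 against its mean level over the 6 arrays (log2, horizontal axis). Open points lie at least 2 log2 units below the gene value and the dashed line is the difference of the gene value. In Dclk1 and Dcx all filled points lie below 0, and in Mapt and Map2 all open points lie above 0 while most filled points lie below.

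The direction of member probe sets differed with their level within the gene. A probe set was taken as low if its mean over the 6 arrays lay at least 2 log2 units below that of its gene value. The split itself did not use the groups. The limit was chosen after seeing the data, so it was not blind to them, and no other limit is given. By it 70 member probe sets were low and 173 were not. Of the 70 low ones 49 had a higher mean in the knockdown, and of the 173 others 138 had a lower one and 35 a higher one. Over all tested genes 52.3% of low and 49.2% of other probe sets had a higher mean, against 70.0% and 20.2% in the members. In tau all 9 low probe sets had a higher mean, by 0.0022 to 0.61, and 13 of 14 others a lower one. In Map2 all 12 low ones had a higher mean, by 0.31 to 0.73, and 16 of 24 others a lower one. In Dclk1 31 of 31 others had a lower mean and 7 of 12 low ones a higher one. The low ones of Dclk1 lay between -1.49 and 0.46. In Dcx 10 of 10 others had a lower mean and 3 of 6 low ones a higher one, and the low ones lay between -0.88 and 0.49. The lowest difference of Dclk1 and that of Dcx were thus among the low probe sets. Map6 went the other way, where 0 of 3 low probe sets had a higher mean.

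Relative to their genes, 39 of the 70 low member probe sets, 55.7%, were higher in all 3 pairs, against 20.1% of 19543 low probe sets over all tested genes. Their median relative difference from diffSplice was 0.22, against 0.0078 for the low probe sets of all genes. As probe set minus gene value, their medians were 0.13, 0.29 and 0.33 in pairs 1, 2 and 3. The same probe sets also differed between the replicates. Relative to their genes their median was 0.42 higher in replicate 1 than in replicates 2 and 3, against 0.16 for the low probe sets of all genes. The members were not alike in this. The median was 0.94 in Dcx, 0.80 in Map2, 0.79 in Dclk1, 0.66 in Map1b and 0.51 in Stmn2. It was -0.076 in Mapt, -0.093 in Map1a, -0.11 in Map4 and -0.067 in Map6, and 0.066 in Tubb3. The part of the signal level and of the replicate in these differences was not tested.

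The relative differences of the 243 member probe sets correlated between pairs at 0.60 (pairs 1 and 2), 0.55 (1 and 3) and 0.71 (2 and 3), and at 0.23, 0.16 and 0.23 over all 244785. These are descriptions across probe sets, which share genes, arrays and probe chemistry. The 243 and the 244785 were not matched for signal level or for the share of low probe sets.

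**Figure D4:**
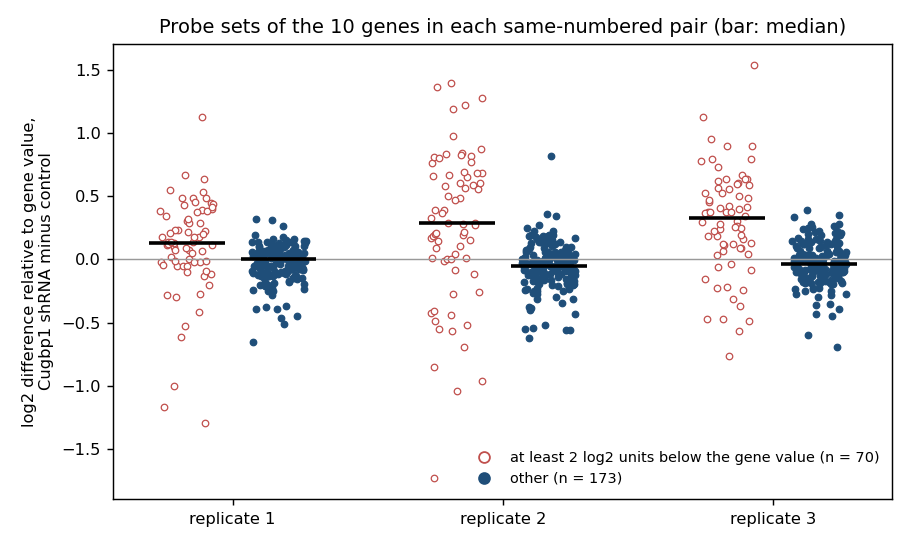
Knockdown minus control difference of each member probe set relative to its gene value (log2) in the same-numbered pairs 1, 2 and 3, with open points for the 70 low and filled points for the 173 other probe sets and bars at the medians. The medians of the low probe sets are 0.13, 0.29 and 0.33, and those of the others lie near 0.

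Around the 10 members, 9 lists of other microtubule genes held 154 genes, of which 149 were tested. Of these 0 were higher and 5 lower in limma without the block, 3.36% against 3.94% of all genes, and 10 higher and 26 lower with it, 24.2% against 23.2%. The median difference over the 149 was 0.023. With 1 array left out in turn between 0 and 2 were called. The lists thus held calls at about the share of all genes.

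Among other structural microtubule-associated proteins 3 of 22 fell and 0 rose. That is 13.6% called, beside 7.69% of the plus-end tracking proteins, 5% of the tubulin-modifying enzymes and 3.94% of all genes. Map6d1, a relative of Map6, had values of 9.89, 10.18 and 10.03 in the control and 9.25, 9.34 and 9.14 in the knockdown, and fell by 0.79 (limma, adjusted p = 0.0182). Mid2, a ubiquitin ligase that binds microtubules, fell by 0.58 (adjusted p = 0.0342), and Dclk3, a kinase related to Dclk1, fell by 0.49 (adjusted p = 0.0496). All 3 were without overlap between groups. Of 13 tested plus-end tracking proteins Dctn1, the large subunit of dynactin, fell by 0.53 (limma, adjusted p = 0.0299), with 10.42, 10.59 and 10.61 in the control and 9.99, 10.00 and 10.05 in the knockdown. Of 20 tubulin-modifying enzymes Tpgs1, a subunit of the polyglutamylase complex, fell by 0.79 (adjusted p = 0.0322).

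No gene of the other 6 lists passed without the block. With it 23.2% of all genes passed, beside 33.3% of the motors, 14.3% of the severing enzymes and 14.3% of the tau kinases and phosphatases. For gamma tubulin and nucleation the share was 16.7% and for alpha and beta tubulins 9.09%. Of 7 tested severing enzymes Spast, the spastin of hereditary spastic paraplegia, was at -0.64 (limma, adjusted p = 0.0557; 0.00376 with the block), and Katnal1 at 0.19. Of 33 motors of the kinesin and dynein families 5 rose and 6 fell with the block, and without it Kif26b was at -0.43 (adjusted p = 0.0567) and Kif3b at -0.31. Of 28 tau kinases and phosphatases 4 fell with the block; Mapk9, the kinase JNK2, was at -0.42 (adjusted p = 0.0517; 0.00792 with the block) and Ppp2r2a, a regulatory subunit of PP2A, at -0.40 (adjusted p = 0.0669). Of 12 genes of gamma tubulin and nucleation 1 rose and 1 fell with the block, Nedd1 at 0.36 and Tubg2 at -0.33. Of 11 alpha and beta tubulins 1 rose with the block, Tubb6 at 0.26, and Tubb4a was at 0.18. Of 3 other stathmins 0 passed in either fit, with Stmn3 at 0.20 and Stmn4 at 0.069.

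**Figure D5:**
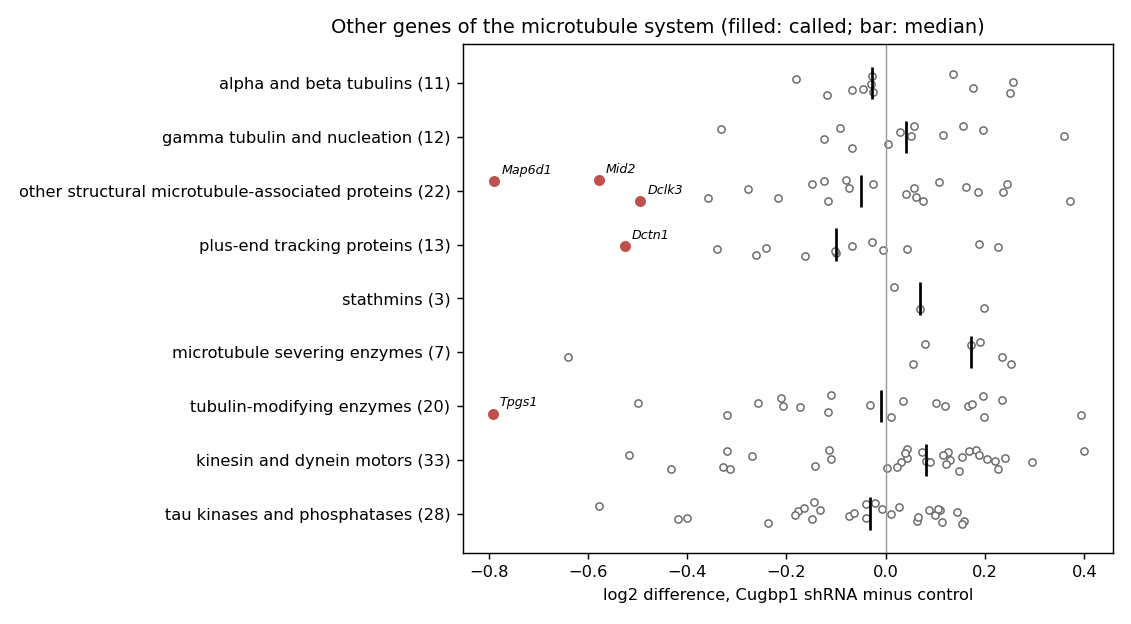
Knockdown minus control difference of gene values (log2) for each tested gene of the 9 related lists, 1 row per list, with filled points for the 5 genes called by limma without the block and bars at the medians. The called genes all lie below 0, and each list spreads to both sides of 0 except the stathmins, whose 3 genes lie above.

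Of the 8 marker lists that of neurons had the highest mean gene values. The shares of the cell types in the cultures were not measured. The mean gene value of 9 tested neuron markers of 10 listed lay at 11.43 to 11.46 in control and 11.38 to 11.42 in knockdown arrays, with 0 called without the block and 1 higher with it. The 7 tested markers of dividing cells of 8 listed all had higher means in the knockdown, with a median difference of 0.28. Their mean gene value was 8.23 to 8.65 against 8.03 to 8.30 in the control. Without the block 0 were called, and with it 6, all higher, where 9.34% of all genes were called higher. For 8 neural progenitor markers the mean value was 9.64 to 9.79 against 9.71 to 9.88 in the control, with 1, Eomes, lower with the block. For 8 astrocyte markers it was 9.68 to 9.95 against 9.86 to 9.90, with Aldh1l1 lower with the block. For 7 of 8 oligodendrocyte markers it was 9.53 to 9.66 against 9.37 to 9.66, with 0 called. For 8 microglia markers it was 6.52 to 6.86 against 6.60 to 6.91, with C1qa lower with the block. For 6 of 7 endothelial and mural markers it was 6.78 to 7.03 against 6.83 to 7.33, where Pdgfrb fell by 0.80 (limma, adjusted p = 0.0414), and for 6 of 7 fibroblast and meninges markers 8.24 to 8.46 against 8.32 to 8.42, with 0 called. The part of these in the lower Dcx and Dclk1 was not tested.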

How the data were processed

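Total RNA of 6 samples was hybridised to exon arrays, 3 per group. The authors deposited 1 log2 value per probe set and array. These are RMA values from Affymetrix Expression Console, per the submitters' processing notes, which also name mm9. RMA gives the arrays a shared distribution, so differences in total signal are removed. Its version, and the set of arrays normalized jointly, were not given in the sources used here.

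Of 1195555 probe sets, 597778 with a mean over the 6 arrays at or above the median of all (5.73) were kept. The array annotation, with symbols updated through the RefSeq gene table of GRCm38.p6, gave 317245 probe sets a single gene. Genes with at least 3 kept probe sets (16532) got a value per array by median polish. Differences are Cugbp1 shRNA minus control, tested in R 4.3.3 with the lmFit and eBayes functions of limma 3.58.1 (two-sided, Benjamini-Hochberg over all genes or probe sets, called under 0.05), with confidence intervals at 95%. Exon usage was tested with diffSplice and with a splicing index. The tests were tested on simulated data, without a replicate block. The gene test recovered 20 of 67 differences of 0.5 log2 units, 47 of 67 of 1 and 65 of 66 of 2. In 43738 probe sets diffSplice made 7 false calls with 1 spread per gene and 299 with a spread for each probe set. The splicing index made 6 with a spread for each. Of 100 changed probe sets per size, diffSplice recovered 47 at 1 log2 unit and 91 at 2 with 1 spread per gene. With a spread for each probe set diffSplice recovered 55 and 93, and the splicing index 16 and 61. The fits with the block were not simulated.

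Replicates 2 and 3 are numbered in the titles and the array without a number was taken as replicate 1. The labels do not say that arrays came from separate cultures, so p-values measure the spread between these arrays, which may be technical. Between arrays of the same number, deviations from the mean of the group had correlations of 0.76, 0.50 and 0.71 over 16532 genes. The numbers were therefore taken to pair the arrays, although the labels state no pairing. A shift shared by the replicate 1 arrays, whose treatment text differs from that of replicates 2 and 3, would alone raise all 3 correlations. Its part was not tested. The fit without the block is the main one.

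The members, the gene lists and the alternatives were chosen with earlier results of these data known. The genes named are the 10 members, Celf1, the called genes of each list (up to 6) or else the 2 with the smallest p; the probe sets named are, per member, the one with the smallest diffSplice p and those with the largest and smallest difference. Alternatives were a replicate block, a block for the form of the treatment text, replicates 2 and 3 alone, each array left out, quantile normalization, median centring, no filter or one at the 75th percentile, trended and robust eBayes variances, means in place of median polish, and the splicing index.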

Additional observations from a re-analysis of the deposited data

How the results depend on the processing

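With the replicate block 3834 genes were called in place of 652, 36 of the related genes, 2 members and 28 member probe sets in diffSplice; with a block for the form of the treatment text these counts were 2539, 22, 2 and 11. The filter at the 75th percentile gave 1058, 11, 1 and 1, and eBayes with trend and robust variances 1091, 11 and 2 genes. Replicates 2 and 3 alone gave 6 member probe sets. Dclk1, at -0.37, reached an adjusted p of 0.0159 with the treatment-text block and 0.0194 with trend and robust variances, and stood at -0.38 (0.0356) with the filter at the 75th percentile; Dcx, at -0.45, reached 0.0145 and 0.0329 in the first pair of these. Map2 turned to -0.016 with the filter at the 75th percentile and Mapt to 0.020 with means in place of median polish, where Dcx shrank to -0.30 (adjusted p = 0.493), Dclk1 stayed at -0.37 (0.160) and Map2 stood at 0.16.

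With 1 array left out, and gene values made anew, the count of all genes called lay between 0 and 274, reached without control replicate 1, that of related genes between 0 and 2, that of member genes at 0 and that of member probe sets between 0 and 7, the latter also without control replicate 1. Dcx lay between -0.52 and -0.34 and Dclk1 between -0.39 and -0.32, while Mapt lay between -0.096 and -0.0070, the latter without control replicate 1. Values near 0 turned sign: Map1a between -0.16 and 0.11 (positive without control replicate 2, control replicate 3 or knockdown replicate 1), Map2 between -0.039 and 0.085 (negative without control replicate 3), Map6 between -0.036 and 0.0033 (positive without control replicate 3), Stmn2 between -0.14 and 0.014 (positive without control replicate 1). Its probe set 5218779, relative to the gene, lay between -0.11 and 1.10. Celf1 lay between -1.43 and -1.29. Relative to their genes, probe sets 5460182 of Dclk1, 5456486 of Dcx and 4943733 of Map2 passed in diffSplice without control replicate 1 (adjusted p = 0.00668, 0.00990 and 0.00584), 4597664 of Map6 without control replicate 3 (0.0459), and 4462655 of Dclk1 without the one or the other of these (0.0159 and 0.00708). Other arrays moved them the other way: without control replicate 2, 4943733 was at 0.17, 5460182 at 0.52, 4462655 at -0.71 and 4664837 of Mapt at -0.22, without control replicate 3 5456486 was at 0.46, and without knockdown replicate 1 4597664 was at -0.25. Probe sets 4385299 of Map1b and 4468172 of Map1a ranged from -1.06 to -0.12 and from 0.022 to 0.88.

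Quantile normalization, median centring and no filter changed no call of a member gene. The splicing index with the block was added after seeing the data. Means in place of median polish were not run for probe sets. The number of arrays, 3 per group, limits the precision of each value.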
